A study of Rattus norvegicus with 12 samples.

Results

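The nuclear-encoded genes of the mitochondrial respiratory chain were followed in uterine tissue of 8-week-old female rats. They were taken as every protein-coding gene whose symbol begins with Ndufa, Ndufb, Ndufc, Ndufs, Ndufv, Sdha to Sdhd, Uqcr, Cox4 to Cox8 or Atp5. This gave 104 of the 34034 genes in the table. By complex, 41 belong to complex I, 4 to complex II, 8 to complex III, 21 to complex IV and 18 to complex V. A further 8 genes (Ndufaf1 to Ndufaf8) are assembly factors of complex I and 4 (Sdhaf1 to Sdhaf4) of complex II. Ndufa4 and Ndufa4l2 carry a complex I name and are counted here with complex IV, and the ATP synthase inhibitor Atp5if1 is counted with complex V.

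The study held 12 libraries in 4 groups of 3. In AS, a rat model of intrauterine adhesion, the lining of the horn was abraded with a bent needle. CP tissue had the same injury followed 2 days later by a patch printed from Endo-UdECM without cells, and EEP tissue the same injury followed 2 days later by the bioprinted patch with cells. AS, CP and EEP thus share the scraping injury, and normal tissue is the only uninjured group. The time of harvest, the animal behind each library and the origin of the cells in the patch are not given in the sources used here. The opposite horn of an EEP animal served as internal control or received the CP patch, so libraries of different groups may come from 1 animal. The p-values therefore measure the spread between these samples, which may in part be technical.

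The respiratory chain sits in the inner mitochondrial membrane. Complex I takes electrons from NADH and complex II from succinate, complex III passes them from ubiquinol to cytochrome c, and complex IV hands them to oxygen. The proton gradient built along the way drives complex V, the ATP synthase. Most subunits are encoded in the nucleus, translated in the cytosol and imported, while a small core of complexes I, III, IV and V is encoded in the mitochondrial genome. In the uterus the muscle layer, the stroma and the epithelium all use this machinery.

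Libraries held 4866790 to 8938227 counts, of which 18.9% to 82.5% fell on the 37 genes of the mitochondrial genome. The remaining 1202525 to 5832552 nuclear counts of each library served as its scale, and levels are given as nuclear CPM, that is CPM computed over the nuclear counts alone. On this scale a count of 3 in a library corresponded to 0.514 to 2.49. The reads come from the 3′ end of transcripts, so that levels are not divided by gene length. Among the injured libraries 2 stood apart. EEP 1 had the lowest mitochondrial share, 18.9%, and the largest nuclear total. AS 1 had a TMM scaling factor of 0.790 when such factors were computed, against 0.975 to 1.07 in the other 11 libraries. Tissue is labelled Endometrium. All 10 smooth muscle markers examined, among them Acta2, Myh11 and Des, had counts in all 12 libraries, so muscle transcripts were present throughout. All 8 endometrial stroma markers and 7 of 8 simple epithelium markers had counts in all 12 libraries as well. In bulk tissue, fewer cells of a type and less RNA per cell cannot be told apart.

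Respiratory chain transcripts made up a smaller part of the nuclear counts in the CP libraries, and in 2 of the 3 EEP libraries, than in normal and AS tissue. The 104 genes took 2.82%, 3.65% and 2.52% of nuclear counts in normal 1, 2 and 3, and AS 1, 2 and 3 had 3.80%, 2.74% and 2.70%. The shares were 1.83%, 2.11% and 1.87% in CP 1, 2 and 3, while EEP 1, 2 and 3 had 2.60%, 1.43% and 1.73%. Every CP library lay below every normal and every AS library. EEP 2 and EEP 3 did too, whereas EEP 1 lay within the normal range. The 95% Wilson intervals of these shares were at most 0.0466 percentage points wide and cover counting error only, so the spread between libraries of a group was far wider than counting error. No p-value is given for these sums.

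**Figure D1:**
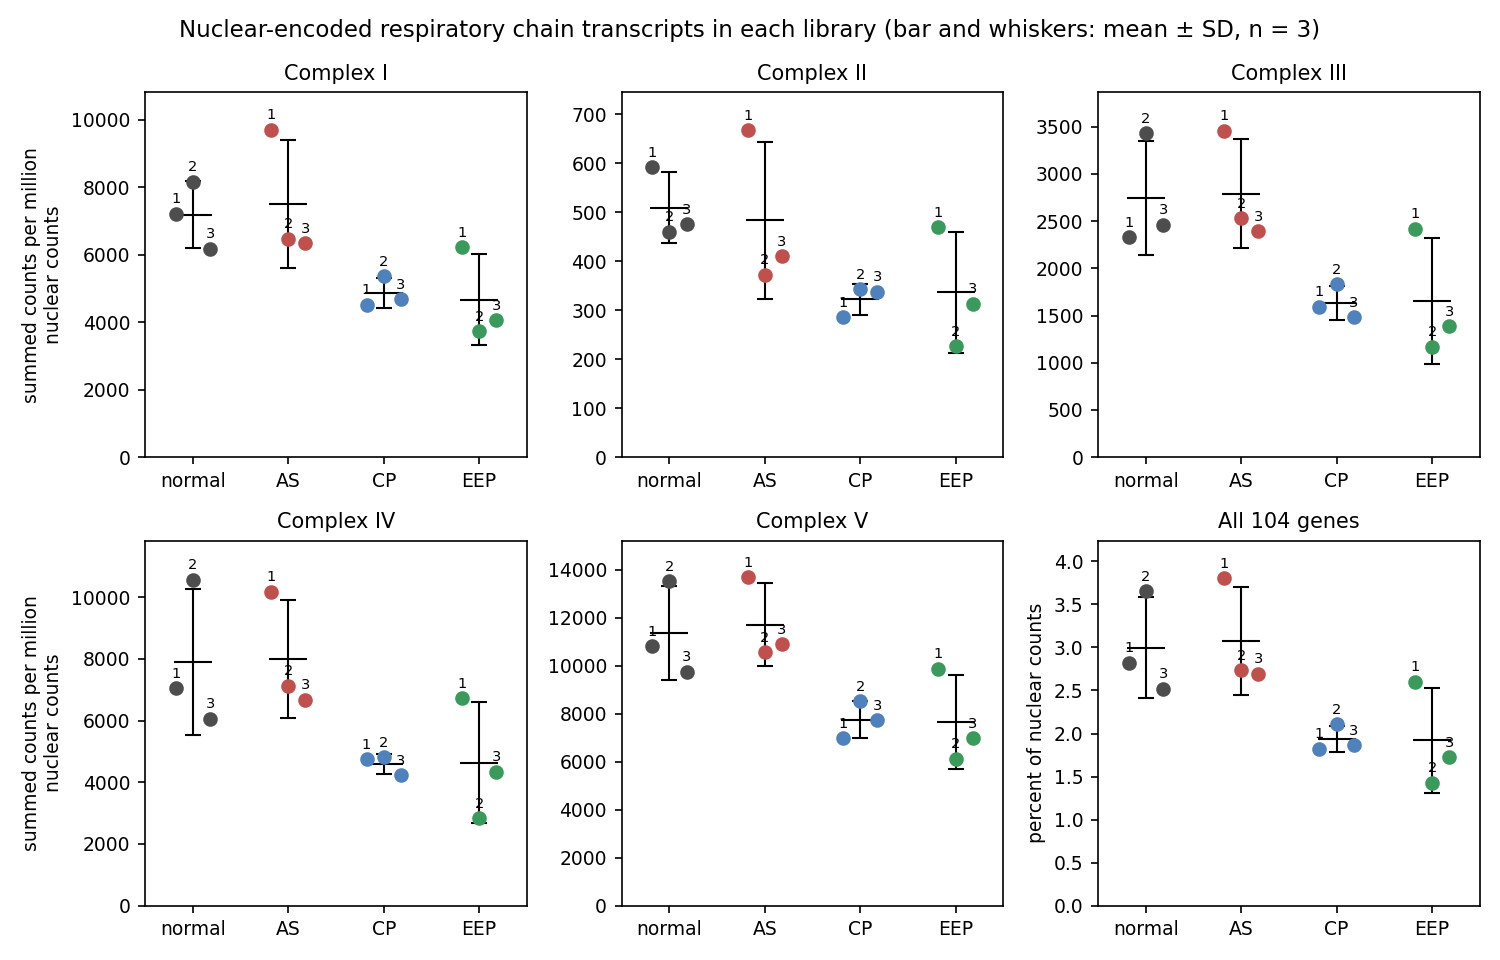
Summed level of the subunit genes of each complex in each library, in nuclear CPM, and the share of nuclear counts taken by all 104 genes, in percent; points are libraries with their replicate number, and bars with whiskers are the mean ± SD of 3. In all 6 panels the 3 CP libraries lie below the 3 normal libraries, EEP 2 and 3 lie with the CP libraries or below them, and EEP 1 lies within or close to the normal range.

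The same order held in each complex. Complex I subunits summed to 7188 ± 996 nuclear CPM in normal tissue and 7512 ± 1902 in AS (SD, n = 3 here and below), against 4857 ± 445 with the CP patch and 4669 ± 1354 with the EEP patch. Complex II summed to 509 ± 71.9, 483 ± 161, 322 ± 31.9 and 337 ± 123 in the same order, complex III to 2742 ± 602, 2792 ± 580, 1635 ± 180 and 1658 ± 668. Complex IV summed to 7890 ± 2369, 7990 ± 1902, 4592 ± 315 and 4631 ± 1957, and complex V to 11360 ± 1948, 11711 ± 1719, 7746 ± 767 and 7659 ± 1969. In each complex AS 1 was the highest AS library and EEP 1 the highest EEP library. The plot of summed levels by complex shows the single libraries.

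Gene by gene, 97 of the 104 members passed the low-count filter and were tested among 13262 nuclear genes with edgeR's quasi-likelihood test. None was called at an adjusted p under 0.05 in any of the 6 comparisons. The 7 that were not tested were at or near 0 throughout: Ndufa10l1, Ndufb11b, Ndufb4l1, Cox7a1, Cox7b2, Cox8c and Ndufa4l2. Each comparison is described below by the number of tested members on either side of 0, by those at an unadjusted p under 0.05, and by those whose 3 libraries did not overlap between groups, each beside the share of all tested genes that met the same rule.

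AS against normal asks what the scraping did. Of all genes, 0.00754% were called, and of the members 0 (smallest adjusted p = 0.697; 0 with DESeq2, against 0.147% of its genes lower). At an unadjusted p under 0.05 there were 2 members lower, against 3.97% of all genes lower, and 0 higher, against 1.39%. The members' median log2 fold change was 0.05, against -0.13 over all genes tested, and 40 of 97 lay below 0, against 58.3% of all genes. The AS libraries lay wholly below normal in 5 members (Sdha, Cox8b, Ndufa4, Ndufb4 and Atp5f1a), against 11.4% of all genes, and wholly above in 3 (Ndufc1, Cox5a and Sdhaf1), against 4.06%. The median had the same sign with every other scaling tried (0.24 with TMM) but lay below 0 when AS 1 (-0.18) or normal 3 (-0.02) was left out. Without AS 1, 23 members lay wholly lower, against 19.1% of all genes.

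CP against normal sets the cell-free patch on injured tissue beside uninjured tissue. No gene was called in all, 0%, and none of the members (smallest adjusted p = 0.203), while DESeq2 called 1, Atp5mc3, lower, against 0.624% of the genes with a DESeq2 adjusted p. At an unadjusted p under 0.05, 26 members were lower, against 5.69% of all genes, and 0 were higher, against 6.68%. The members' median log2 fold change was -0.63, against -0.02 over all genes, and 89 of 97 lay below 0, against 50.8% of all genes. In 55 members every CP library lay below every normal one, against 14.4% of all genes. When the fit held only these 2 groups, 8 members were called (Atp5mc3, Atp5f1c, Ndufb9, Ndufa4, Uqcrc2, Ndufv2, Ndufa7 and Ndufb8), all lower, against 1.53% of all genes lower. The median was -0.36 once the mitochondrial share entered the fit. Ndufc1 was the 1 member with every CP library above every normal one, against 13.8% of all genes.

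EEP against normal makes the same comparison for the patch with cells. Of all genes 0.00754% were called and of the members 0 (smallest adjusted p = 0.496; 0 with DESeq2, against 0.0795% of its genes lower). At an unadjusted p under 0.05, 17 members were lower, against 2.38% of all genes, and 0 higher, against 5.21%. The median log2 fold change was -0.57, against 0.05 over all genes, and 87 of 97 lay below 0, against 47.1% of all genes. In 32 members every EEP library lay below every normal one, against 7.34% of all genes, and in 0 every EEP library lay above, against 7.1%. These values depended on EEP 1: without it the median was -0.95, 68 members lay wholly below normal, against 21.6% of all genes, and 3 members were called (Uqcrc2, Sdha and Atp5mc3), all lower, against 0.33% of all genes lower.

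Against AS, the group with the same scraping and no patch, both patches gave lower values. The patch followed 2 days after the injury and the time of harvest is not given, so time since injury may differ between these groups. In EEP against AS, 0.0151% of all genes were called and 0 members (smallest adjusted p = 0.349), with 27 members lower and 1 higher at an unadjusted p under 0.05, against 2.8% and 7.7% of all genes. Their median log2 fold change was -0.61, against 0.23 over all genes, 91 of 97 lay below 0, against 38.4% of all genes, 30 lay wholly lower, against 4.24%, and 1 wholly higher, against 9.18%. In CP against AS, 0.00754% of all genes were called and 0 members (smallest adjusted p = 0.307), with 34 members lower and 1 higher, against 4.07% and 7.31% of all genes. The median was -0.69, against 0.16 over all genes, 89 of 97 lay below 0, against 43.2%, 46 lay wholly lower, against 6.75%, and 1 wholly higher, against 11.7%. The member that was higher in both comparisons was Cox8b, which has few counts. DESeq2 called 8 members lower in EEP against AS and 6 in CP against AS, against 1.2% and 0.449% of its genes lower; Atp5f1d and Atp5f1e were in both lists. Without a low-count filter edgeR called Ndufv2 lower in EEP against AS, beside 0.112% of all genes, and Ndufa12 and Ndufb9 lower in CP against AS, beside 0.219%. Both comparisons share the AS libraries, and CP and EEP against normal share the normal libraries, so they are not independent of each other. TMM factors, which moved the median of all genes by more than 0.1 in comparisons with AS, gave member medians of -0.85 for EEP against AS and -0.90 for CP against AS, beside 0.04 and -0.01 over all genes. Without EEP 1, 67 members lay wholly below AS in EEP, against 12.4% of all genes.

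EEP against CP sets the patch with cells beside the one without. No gene was called, 0%, with edgeR or DESeq2, and the smallest adjusted p of a member was 0.9997. At an unadjusted p under 0.05 no member was lower and 1, Sdhaf4, was higher, against 0.882% and 1.98% of all genes. The median log2 fold change was 0.04, against 0.08 over all genes, and 44 of 97 lay below 0, against 44.2% of all genes. In 1 member, Ndufab1, every EEP library lay below every CP library, against 2.56% of all genes, and in 2, Ndufaf3 and Ndufaf4, every EEP library lay above, against 4.33%. Without EEP 1 the median was -0.25 and 21 members lay wholly lower, against 7.99% of all genes. The missing calls do not show that the patches act alike.

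**Figure D2:**
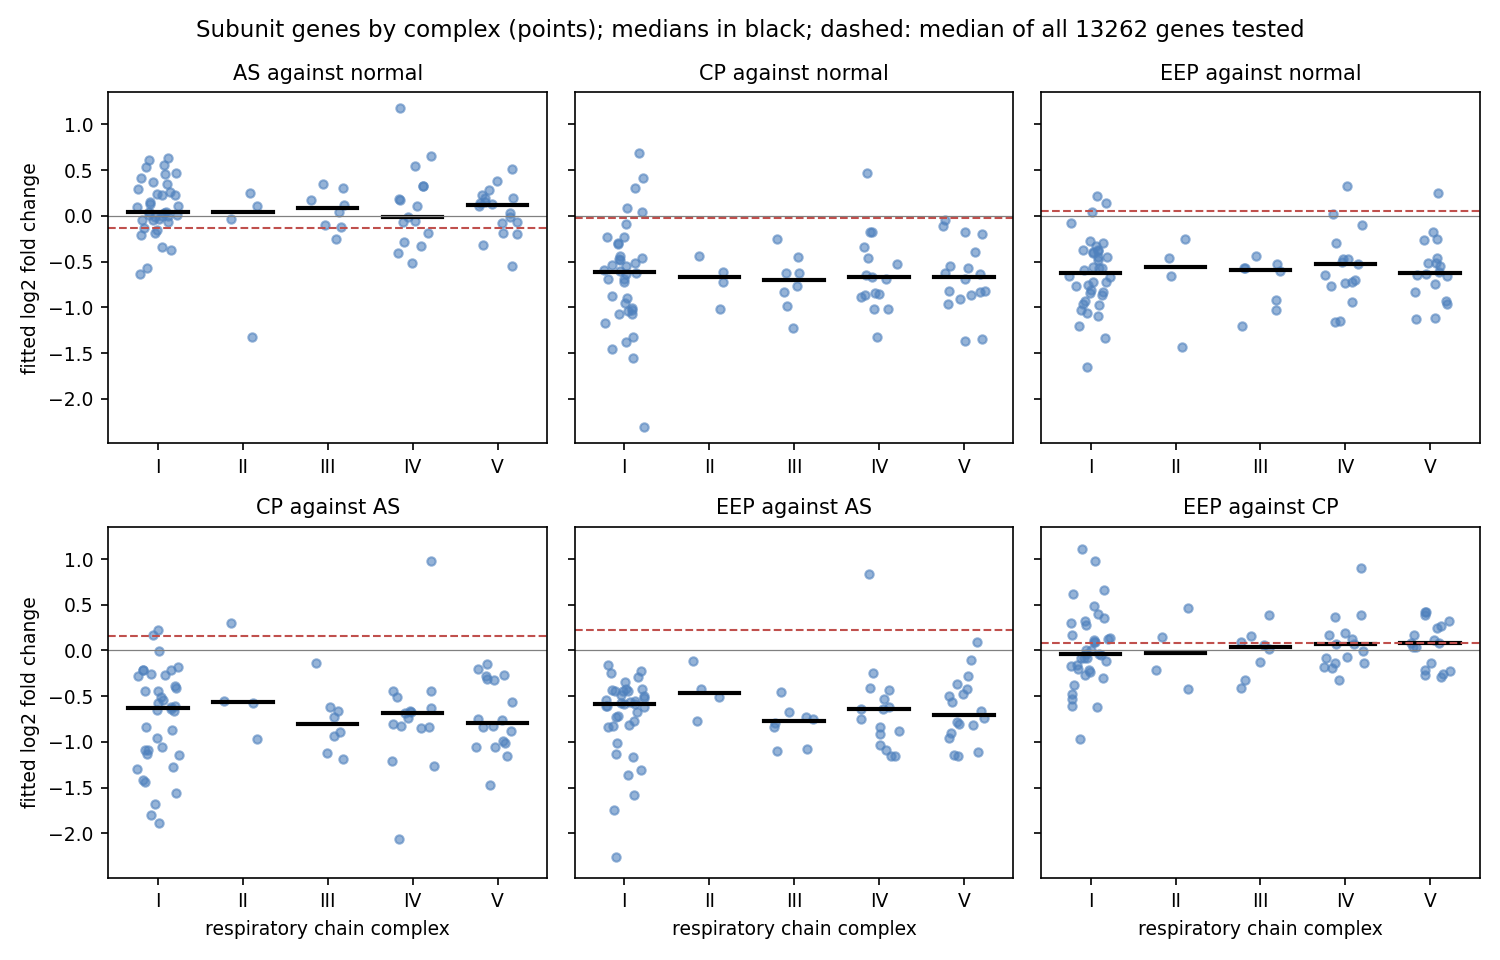
Fitted log2 fold change of each tested subunit gene (points, spread sideways at random) by complex in the 6 comparisons; black lines are the medians of the complexes, the dashed line is the median of all 13262 genes tested, and the 12 assembly factors and the low-count gene Cox8b are not drawn, though Cox8b is in the median of complex IV. In CP and EEP against normal and against AS the medians of all 5 complexes lie between -0.46 and -0.81, and in AS against normal and EEP against CP they lie between -0.03 and 0.12.

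The medians of the 5 complexes lay close together, and no test was made between them. In CP against normal the medians were -0.62, -0.66, -0.70, -0.67 and -0.66 for complexes I to V, and in EEP against normal -0.62, -0.56, -0.59, -0.53 and -0.62. All 18 tested genes of complex V and all 8 of complex III lay below 0 in CP against normal. Of complex I, 33 of 38 did. These 5 exceptions were Ndufc1, Ndufa10, Ndufab1, Ndufa8 and Ndufs6, named after their values were seen.

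Within complex I, the 7 nuclear-encoded core subunits, most of which carry the flavin and iron-sulfur centres or bind the quinone, had a median log2 fold change of -1.002 in CP against normal. The 31 tested accessory subunits had -0.59. Ndufv2, an iron-sulfur subunit at the NADH end, stood at 246, 228 and 184 nuclear CPM in normal tissue, 508, 178 and 187 in AS, 91.9, 113 and 116 in CP and 126, 81.1 and 51.6 in EEP. All 6 libraries with a patch lay below all 6 without one. Other members, among them Ndufs4, Ndufb8 and Atp5mc3, showed this order too, and the share of all genes with it was not determined. The log2 fold change was -1.75 in EEP against AS (SE 0.443, adjusted p = 0.349) and -1.44 in CP against AS (SE 0.439, adjusted p = 0.320); AS 1 is the highest library, and without one library at a time the first value ran from -2.13 to -1.07. Ndufs1, the largest iron-sulfur subunit, was low, with 17.8, 14.3 and 21.7 in normal tissue and 9.26, 6.64 and 0 in EEP (log2 fold change -1.65, SE 0.821, adjusted p = 0.684).

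The accessory subunits of complex I with the smallest p-values in CP were Ndufb9 and Ndufb10, both of the membrane arm. Ndufb9 stood at 115, 172 and 132 in normal tissue, 314, 105 and 114 in AS, 47.4, 65.6 and 39.9 in CP and 114, 41.6 and 58.2 in EEP. The CP libraries lay below all normal and all AS libraries (log2 fold change -1.45, SE 0.478, adjusted p = 0.252 against normal, and -1.80, SE 0.483, adjusted p = 0.307 against AS, where it was -1.10 without AS 1). Ndufa12, of the matrix arm, stood at 283, 81.8 and 120 in AS and 14.1, 69 and 47.2 in CP, without overlap (-1.89, SE 0.541, adjusted p = 0.320, and -1.20 without AS 1). Ndufb10 stood at 62.5, 71.7 and 58.9 in normal tissue and 9.89, 37.4 and 17.8 in CP, again without overlap (-1.55, SE 0.516, adjusted p = 0.253). Ndufs4, needed for a stable NADH end, was 119, 122 and 122 in normal tissue and 82.6, 59.4 and 26.6 in EEP (-1.09, SE 0.423, adjusted p = 0.612).

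Ndufs5, an accessory subunit with few counts, had the value farthest from the median of complex I in CP against normal. It stood at 27.5, 24.6 and 24.2 in normal tissue, 1.79, 28.4 and 19.1 in AS, 9.19, 6.32 and 0 in CP and 13, 8.42 and 11.6 in EEP. CP lay wholly below normal (-2.31, SE 0.989, adjusted p = 0.349), and AS 1 was as low as the CP libraries.

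A few complex I genes lay the other way. Ndufa9, a matrix-arm subunit near the quinone site, was at 0.53 in AS against normal (SE 0.375, adjusted p = 0.983), with overlap, and at 0.27 without AS 1. Ndufc1, a small membrane subunit, stood at 219, 192 and 191 in normal tissue, 330, 235 and 366 in AS and 226, 325 and 253 in CP. Its AS and CP libraries all lay above normal, with log2 fold changes of 0.63 (SE 0.335, adjusted p = 0.938) and 0.42 (SE 0.334, adjusted p = 0.624). Ndufab1, the mitochondrial acyl carrier protein, stood at 266, 221 and 203 in CP and 161, 136 and 180 in EEP, the only member with every EEP library below every CP one (-0.53, SE 0.312, adjusted p = 0.9997). Ndufs6 was at 5.60 ± 4.55 in normal tissue and its copy Ndufs6l1 at 362 ± 40.4, so the split between them is uncertain. Ndufb4 is uncertain as well, since a listed pseudogene, Ndufb4-ps6, took 2235 counts in all.

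Complex II, also the succinate dehydrogenase of the citric acid cycle, has no subunit from the mitochondrial genome. Its flavoprotein Sdha was wholly lower in AS, CP and EEP than in normal tissue. It stood at 132, 80.9 and 80.6 in normal tissue, 34.4, 30.5 and 52.6 in AS, 73.5, 44.2 and 27.8 in CP and 68.2, 16.8 and 21.6 in EEP. All 9 injured libraries lay below the 3 normal ones, and the injured groups overlapped each other. Of all genes, 11.4%, 14.4% and 7.34% lay wholly below normal in AS, CP and EEP. The share of all genes with all 9 injured libraries below normal was not determined. The log2 fold changes against normal were -1.32 in AS (SE 0.529, adjusted p = 0.833), -1.01 in CP (SE 0.526, adjusted p = 0.441) and -1.43 in EEP (SE 0.529, adjusted p = 0.565). The CP value was -0.56 with the mitochondrial share in the fit, and the EEP value -2.35 without EEP 1. Its partners in AS against normal stood at -0.04 for the iron-sulfur protein Sdhb, and at 0.25 and 0.11 for the membrane anchors Sdhc and Sdhd; the value of Sdhc was -0.24 without AS 1. In CP against normal the 3 partners stood at -0.61, -0.72 and -0.44, and in EEP against normal at -0.46, -0.26 and -0.65 (smallest adjusted p = 0.477, for Sdhc in CP, whose value was -0.35 with the mitochondrial share in the fit).

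In complex III, all 8 genes lay below 0 in each patch group against normal and against AS. Uqcrc2, a core protein of the matrix side, stood at 141, 148 and 119 in normal tissue, 159, 95 and 125 in AS, 52.3, 71 and 50.4 in CP and 95.8, 42.1 and 36.6 in EEP. Both patch groups lay wholly below normal (log2 fold change -1.23, SE 0.401, adjusted p = 0.252 in CP, and -1.21, SE 0.399, adjusted p = 0.534 in EEP; the CP value was -0.76 with the mitochondrial share in the fit). The other core protein, Uqcrc1, had smaller fold changes: it was 211 ± 2.27 in normal tissue, 177 ± 24.1 in CP and 141 ± 24.7 in EEP (-0.25 and -0.57). Its libraries in both patch groups lay wholly below normal as well. Uqcrq, a small subunit near the quinone site, stood at 503, 374 and 439 in AS and 167, 228 and 185 in CP (-1.18, SE 0.329, adjusted p = 0.320). Uqcrh, the hinge protein, stood at 781, 1299 and 862 in normal tissue and 857, 281 and 411 in EEP. EEP 1 lay within the normal range (-0.92, SE 0.411, adjusted p = 0.638, and -1.50 without EEP 1). Uqcrb, another small subunit, was at 0.31 in AS against normal (SE 0.389, adjusted p = 0.991) and at 0.13 without normal 1. The Rieske protein Uqcrfs1 overlapped between all groups.

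In complex IV, Cox6c, a small membrane subunit, stood at 1407, 3111 and 1027 in normal tissue, 2106, 1855 and 1346 in AS, 569, 816 and 825 in CP and 1188, 483 and 824 in EEP. CP lay wholly below normal and AS (log2 fold change -1.33, SE 0.436, adjusted p = 0.252 against normal), although normal 2 was far above the other normal libraries and without it the value was -0.72. Ndufa4 was 778 ± 72.2 in normal tissue, 620 ± 64.6 in AS tissue, 385 ± 37.8 in CP and 405 ± 170 in EEP (-1.01, SE 0.338, adjusted p = 0.253 in CP). Cox7b was 478 ± 170 in AS and 234 ± 72.0 in EEP (-1.03, SE 0.350, adjusted p = 0.376). Cox5a, a subunit on the matrix side, stood at 117, 120 and 119 in normal tissue and 269, 123 and 168 in AS. The groups did not overlap, and AS 1 was highest (0.66, SE 0.433, adjusted p = 0.976, and 0.30 without AS 1).

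In EEP against CP the smallest p-values of complex IV were those of Cox7a2l2 and of the zinc-binding subunit Cox5b. Cox5b stood at 227, 228 and 212 in CP and 502, 173 and 185 in EEP, with EEP 1 above and the other two below CP (0.37, SE 0.437, adjusted p = 0.9997). Cox7a2l2 was at most 8.40 in both groups (0.91, SE 0.870, adjusted p = 0.9997).

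The tissue isoforms of complex IV were present mainly in their ubiquitous forms. Cox4i1 was 263 ± 11.9 in normal tissue, while Cox4i2, the form tied to low oxygen in lung, was 4.93 ± 3.92; the log2 fold changes in CP against normal were -0.65 and 0.46 (SE 0.381 and 1.02). Cox6a1 was 660 ± 147, and the heart and skeletal muscle form Cox6a2 13 ± 7.54. Cox7a1, the muscle form of Cox7a2, was at most 4.63 in any library and was not tested. Cox7a2l, an assembly factor of respiratory supercomplexes, was 233 ± 35.1 in normal tissue and 206 ± 13.3 in CP (-0.18).

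Cox8b, the form of subunit 8 known from heart, skeletal muscle and brown fat, was almost absent from AS among the tested members. It stood at 5.43, 1.62 and 8.96 in normal tissue, 0, 0.508 and 0 in AS, 2.83, 1.94 and 9.45 in CP and 3.94, 7.97 and 13.3 in EEP. The AS libraries lay below all other libraries, and the share of all genes with this order was not determined. Its counts totalled 57 in normal, 1 in AS, 26 in CP and 57 in EEP libraries. The pooled ratio of normal to AS was 35.4 (95% counting interval 6.11 to 1423), that of EEP to AS 40.7 (7.03 to 1637) and that of CP to AS 32.1 (5.28 to 1317). These intervals cover counting error only and leave out the spread between libraries. Nor do they allow for the choice of Cox8b, whose value lay farthest from the median of complex IV in these comparisons. None of these differences passed the edgeR test over all genes (adjusted p = 0.697, 0.366 and 0.322). Of 7 striated muscle markers, Acta1 and Tnnt2 had counts in all 12 libraries, Actn2 and Myh6 in 9, Ckm in 7, Myh7 in 3 and Myl2 in 2. Their summed level was 547 to 965 in normal tissue, 966 to 1755 in AS, 385 to 1518 with the CP patch and 137 to 523 with the EEP patch. Acta1, with 23736 counts over all libraries, held most of the counts behind this sum. Tnnt2 had 1091 counts and each other striated muscle marker at most 85. Of 5 fat markers, Adipoq had counts in 12 libraries, Fabp4 in 10, Ucp1 in 6, Plin1 in 5 and Cidec in 2, with sums of 16.8 to 84.4 in normal tissue and 10.6 to 107 in AS. The part of these cells in the Cox8b values was not tested.

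Complex V is described by the parts of the enzyme. The 5 genes of the F1 head, which makes the ATP, had a median log2 fold change of -0.82 in CP against normal, the 4 of the peripheral stalk, which holds the head in place, -0.83, and the 5 accessory genes of the membrane part -0.55. Atp5f1c, the rotating shaft, stood at 211, 228 and 204 in normal tissue, 293, 131 and 139 in AS, 68.6, 98.2 and 86.1 in CP and 174, 72.6 and 90.6 in EEP. Both patch groups lay wholly below normal (-1.35, SE 0.410, adjusted p = 0.237 in CP). Atp5f1d, at the foot of the shaft, was 153 ± 49.3 in AS and 55.2 ± 12.9 in CP (-1.47, SE 0.393, adjusted p = 0.307). The stalk genes Atp5pd and Atp5pf were 307 ± 86.9 and 348 ± 47.4 in AS against 142 ± 58.6 and 156 ± 63.9 in EEP (-1.11 and -1.15, SE 0.370 and 0.386, adjusted p = 0.376 for both). Atp5if1, which blocks the enzyme when it would run backwards, was 414 ± 10.5 in normal tissue, 363 ± 66.7 in AS tissue, 316 ± 22.1 in CP and 271 ± 91.4 in EEP, below normal in all 6 patch libraries (-0.39 and -0.61, adjusted p = 0.650 and 0.720).

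The c ring, the rotor in the membrane, is built from 1 mature protein encoded by 3 genes, Atp5mc1, Atp5mc2 and Atp5mc3, whose products differ in the import sequence that is cut off. They lie on chromosome 10 (81024056 to 81026780), chromosome 7 (133791341 to 133799713) and chromosome 3 (58810535 to 58813185) of mRatBN7.2. Atp5mc3 stood at 1841, 2442 and 1582 in normal tissue, 1717, 1407 and 1577 in AS, 696, 813 and 759 in CP and 1285, 629 and 767 in EEP. All 6 libraries with a patch lay below all 6 without one, as in Ndufv2 and some other members. The share of all genes with this order was not determined. It had the smallest p of all members in CP against normal (log2 fold change -1.37, SE 0.341, adjusted p = 0.203) and in EEP against normal (-1.13, SE 0.339, adjusted p = 0.496).

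Its paralogues differed less. Atp5mc2 stood at 1091, 982 and 907 in normal tissue, 1493, 908 and 803 in AS, 886, 935 and 769 in CP and 646, 674 and 855 in EEP (-0.20 in CP and -0.45 in EEP against normal), with EEP wholly below normal and CP overlapping it. Atp5mc1 stood at 326, 281 and 377 in normal tissue, 502, 303 and 288 in AS, 213, 271 and 386 in CP and 633, 311 and 222 in EEP (-0.18 and 0.25), where all groups overlapped. The ratio of the Atp5mc3 count to the Atp5mc2 count, which needs no library scale, was 1.69, 2.49 and 1.74 in normal tissue and 1.15, 1.55 and 1.96 in AS. It was 0.786, 0.870 and 0.987 in CP and 1.99, 0.932 and 0.897 in EEP. All 3 CP libraries lay below every normal and AS library, while EEP 1 lay within the normal range. The log2 ratio differed by -1.15 between CP and normal and by -0.79 between CP and AS, each with an exact permutation test at 0.1 (two-sided), the lowest p open to groups of 3. Adjusted over 18 tests, 3 ratios in 6 comparisons, this is 0.36. The ratio of Atp5mc3 to Atp5mc1 was lower by 1.14 in CP and 1.29 in EEP than in normal tissue on the log2 scale, with the same exact permutation p of 0.1 (0.36 adjusted). These ratios were chosen after the values were seen.

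**Figure D3:**
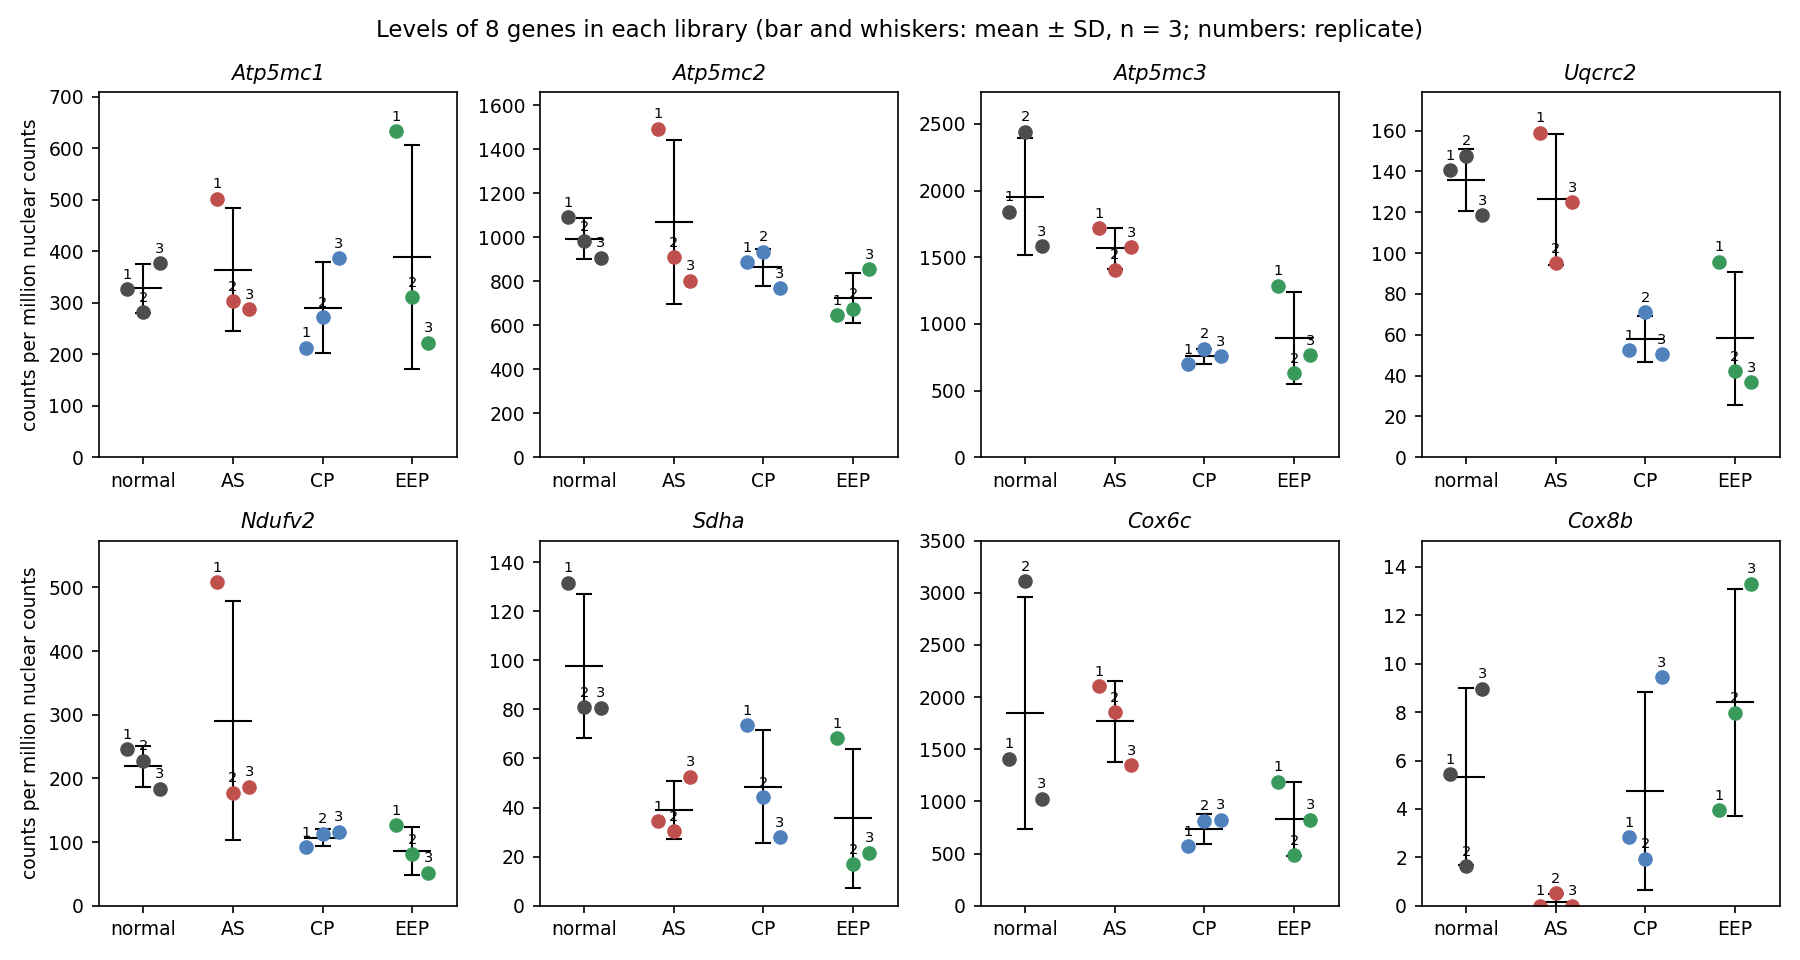
Levels of 8 genes in each library, in nuclear CPM, with replicate numbers beside the points and bars with whiskers for the mean ± SD of 3; the genes were chosen with their values known. Atp5mc3 and Ndufv2, like some members not drawn, lie lower in all 6 patch libraries than in all 6 others. Sdha lies lower in all 9 injured libraries than in normal tissue, Atp5mc1 and Atp5mc2 overlap between normal and CP, and Cox8b is at 0 to 0.508 in AS. The shares of all genes with the orders of Atp5mc3, Ndufv2 and Sdha were not determined.

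The start regions of the c ring genes and of Uqcrc2 are printed because these paralogues gave different values and because Uqcrc2 lay wholly below normal in both patch groups. They are RefSeq windows on GRCr8, a later build than that of the files, from 250 bases before to 50 after each gene's start, and each is written 5′ to 3′ on the gene's own strand. Capitals mark the motif of NRF1, which is GCGCA, then any base, then GCGC, or CCGGAAG, a core bound by ETS factors such as GABP, on either strand. Another motif searched, AANATGGCG of YY1, is in none of these windows.
Atp5mc1, chr10:81523296-81523595 (- strand): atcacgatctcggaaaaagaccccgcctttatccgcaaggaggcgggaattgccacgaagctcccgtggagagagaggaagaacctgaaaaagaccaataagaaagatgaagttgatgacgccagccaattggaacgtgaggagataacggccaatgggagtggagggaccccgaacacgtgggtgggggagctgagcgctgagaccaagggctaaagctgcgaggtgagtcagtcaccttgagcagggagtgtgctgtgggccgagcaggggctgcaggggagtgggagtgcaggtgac
Atp5mc2, chr7:135678169-135678468 (- strand): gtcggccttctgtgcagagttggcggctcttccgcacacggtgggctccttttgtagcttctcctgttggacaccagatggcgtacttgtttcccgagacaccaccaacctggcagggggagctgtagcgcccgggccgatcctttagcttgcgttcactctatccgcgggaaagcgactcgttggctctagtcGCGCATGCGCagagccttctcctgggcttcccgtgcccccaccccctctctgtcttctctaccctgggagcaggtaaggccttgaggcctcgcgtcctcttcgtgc
Atp5mc3, chr3:79220615-79220914 (- strand): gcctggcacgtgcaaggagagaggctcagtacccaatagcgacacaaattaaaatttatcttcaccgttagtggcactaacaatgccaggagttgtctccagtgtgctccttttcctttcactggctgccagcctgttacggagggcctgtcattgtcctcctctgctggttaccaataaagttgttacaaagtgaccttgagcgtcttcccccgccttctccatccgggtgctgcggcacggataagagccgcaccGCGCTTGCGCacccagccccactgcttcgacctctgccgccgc
Uqcrc2, chr1:184598990-184599289 (+ strand): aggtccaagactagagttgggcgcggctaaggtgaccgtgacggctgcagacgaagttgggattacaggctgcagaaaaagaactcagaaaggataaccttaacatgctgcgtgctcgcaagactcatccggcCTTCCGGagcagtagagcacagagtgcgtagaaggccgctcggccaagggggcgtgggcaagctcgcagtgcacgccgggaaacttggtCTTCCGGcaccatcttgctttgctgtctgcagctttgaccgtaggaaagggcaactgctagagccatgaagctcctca

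The windows of Atp5mc2 and Atp5mc3 each hold 1 NRF1 match, that of Atp5mc1 holds no match, and that of Uqcrc2 holds 2 ETS matches. So both a gene with a low value in CP, Atp5mc3, and one near its normal level, Atp5mc2, carry an NRF1 match. Among windows searched and not printed, that of Uqcrq held 1 ETS match, and those of Ndufv2, Atp5f1d and Cox8b held no match. Ndufv2, like Uqcrc2, lay wholly below normal in both patch groups. A window was at hand for 86 of the 97 tested members. Of these, 22.1% held the NRF1 motif, 30.2% the ETS motif and 22.1% the YY1 motif, with 60.5% holding at least 1 of them. Over 10235 tested protein-coding genes the shares were 9.82%, 17.7%, 6.29% and 29.4%. By complex, 6 of 17 windows of complex V and 7 of 34 of complex I held the NRF1 motif, and 0 of 14 of complex IV held it or the YY1 motif. A match is a description of the letters and does not show that a factor binds there, and no match says nothing of the factor.

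Assembly factors among the members had low counts. The 8 Ndufaf genes had a median log2 fold change of -0.56 in CP and -0.38 in EEP against normal, and the 4 Sdhaf genes -0.34 and -0.30. Sdhaf4, which helps to mature Sdha, stood at 26, 36.8 and 29.3 in normal tissue, 1.41, 11.2 and 6.82 in CP and 40.1, 5.32 and 24.1 in EEP. CP lay wholly below normal (-2.21, SE 0.796, adjusted p = 0.283). Sdhaf1, an iron-sulfur factor of complex II, stood wholly above normal in AS, 59.0 ± 10.8 against 35.3 ± 8.15 (0.74, SE 0.543, adjusted p = 0.987).

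Other mitochondrial gene lists, chosen with earlier results of these data known, were described the same way. No gene of these lists was called in any comparison with edgeR. Of 12 electron carriers and feeders, 9 lay below 0 in CP against normal and in EEP against normal (medians -0.60 and -0.41). Cycs, cytochrome c, had the smallest p of that list, with log2 fold changes of -2.27 (SE 0.602, adjusted p = 0.203) and -1.65 (SE 0.578, adjusted p = 0.546). Of 25 genes of import and cristae, 21 and 20 lay below 0 (-0.60 and -0.44), with the ADP/ATP carrier Slc25a4 at -1.14 and the phosphate carrier Slc25a3 at -1.36 in CP. Of 17 citric acid cycle genes 14 and 15 did (-0.56 and -0.36), and of 73 tested mitochondrial ribosomal proteins 57 and 57 (-0.48 and -0.39).

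Against AS, the medians in EEP and CP were -0.50 and -0.68 for import and cristae, -0.36 and -0.54 for mitochondrial ribosomal proteins, -0.26 and -0.29 for the citric acid cycle and -0.15 and -0.30 for electron carriers and feeders, beside -0.61 and -0.69 for the members.

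The medians of the regulators and of the hypoxia list lay closer to 0. For 21 regulators of mitochondrial biogenesis the medians were -0.26 in CP and 0.11 in EEP against normal, with 13 and 9 below 0, and against AS they were 0.04 and 0.12. The coactivator Ppargc1b stood at 1.29 and 1.65 in CP and EEP against normal (SE 0.639 and 0.643, adjusted p = 0.420 and 0.612). Its level was 42.1 ± 30.1 in EEP and 13.2 ± 0.741 in normal tissue. Other regulators lay below 0. Lrpprc had the smallest p of this list in CP against normal, at -1.13 (SE 0.508, adjusted p = 0.376). Slirp had the next smallest p after Ppargc1b in EEP against normal, at -0.72 (SE 0.393, adjusted p = 0.718). For 10 genes of the hypoxic switch of metabolism the medians were -0.12 and -0.14 in CP and EEP against normal, but single libraries differed. The list's median log2 level relative to the normal mean was 0.14, -0.07 and -0.51 in CP 1, 2 and 3. In EEP 1, 2 and 3 it was 0.63, -0.43 and -0.96. Assembly factors of complexes outside the members had medians in CP against normal of -0.43 for complex I, -0.39 for complex III, -0.33 for complex IV and -0.70 for complex V. Those of complex I stood at -0.46 in AS against normal already, and above 0 against AS, at 0.26 in EEP and 0.17 in CP.

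**Figure D4:**
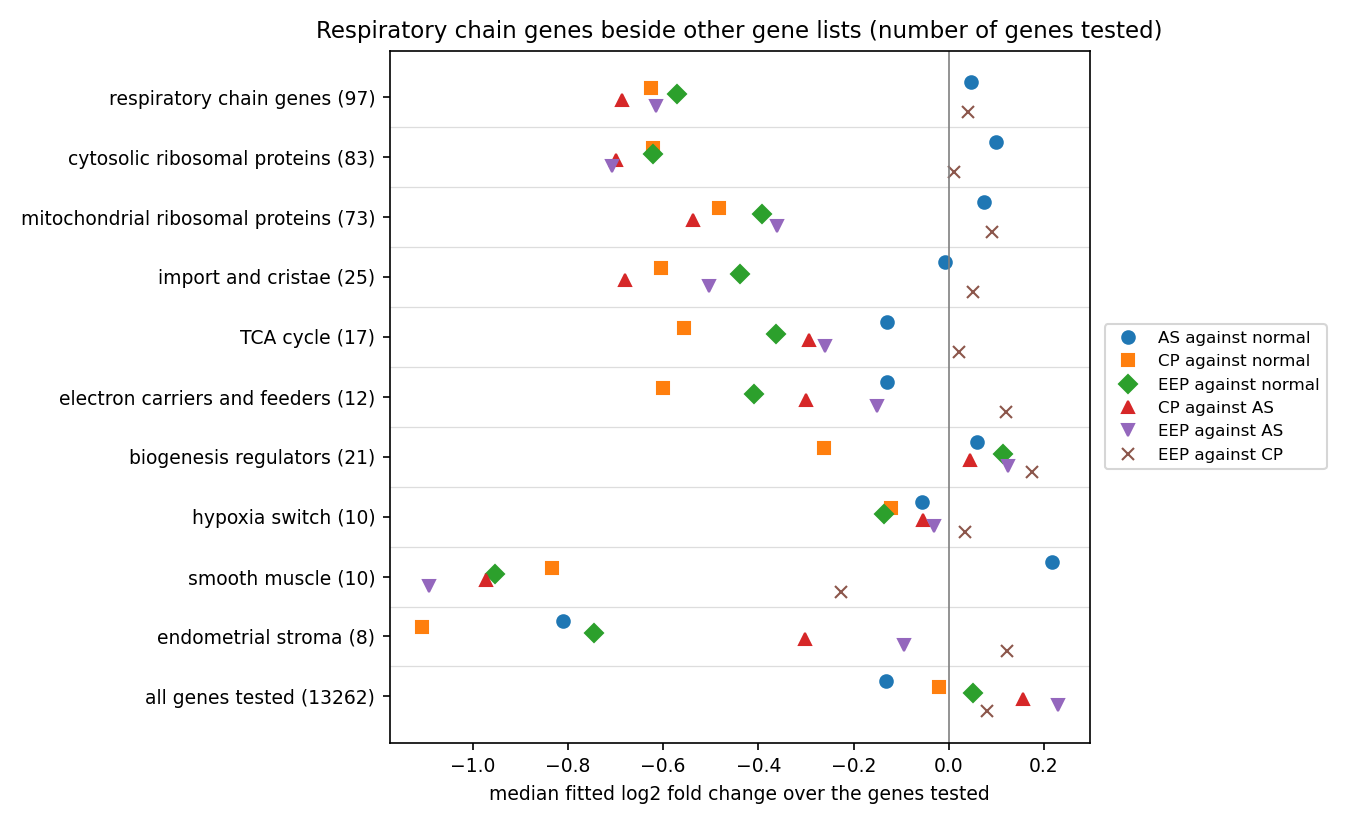
Median fitted log2 fold change of the tested respiratory chain genes and of 9 other gene lists in the 6 comparisons (symbols), with the number of genes tested in brackets and all genes tested in the last line. The respiratory chain genes and the cytosolic ribosomal proteins have nearly the same medians, the smooth muscle markers lie lower still in the patch comparisons, and the biogenesis regulators and hypoxia list lie near 0.

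Cytosolic ribosomal proteins, which make no part of mitochondria, were lower in the patch groups too. Of 83 tested cytosolic ribosomal proteins, 79 lay below 0 in CP against normal and 81 in EEP against normal, with medians of -0.62 in both, and 53 and 36 lay wholly lower, against 14.4% and 7.34% of all genes. Their summed level was 106320 to 135956 nuclear CPM in normal tissue, 112697 to 172428 in AS tissue, 72676 to 93455 with the CP patch and 56943 to 97491 with the EEP patch. Their medians were -0.71 in EEP against AS and -0.70 in CP against AS, beside -0.61 and -0.69 for the respiratory chain genes. Whether the lists differ was not tested.

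Of 10 smooth muscle markers, 9 lay below 0 in CP and in EEP against normal (medians -0.83 and -0.95), and their summed level was 14709 to 17181 in normal tissue, 15924 to 24548 in AS tissue, 8189 to 11371 with the CP patch and 5228 to 11109 with the EEP patch. EEP 1 stood at 11109, below every normal library, while its respiratory chain sum lay within the normal range. Endometrial stroma markers, 8 of 8 below 0 in all 3 injured groups against normal, summed to 18811 to 25194 in normal tissue, 14338 to 16140 in AS tissue, 10003 to 14250 with the CP patch and 7173 to 21564 with the EEP patch. Erythrocyte markers lay the other way, with all 5 tested genes above 0 in each injured group against normal, as did 4 of 4 endothelial markers in CP and in EEP. The erythrocyte sums were 6009, 531 and 1095 in AS 1, 2 and 3, against 566 to 780 in normal tissue. AS 2 thus lay below every normal library, and AS 1 was far the highest. The endothelial sum of EEP 1, however, was 53.5, below all normal libraries (127 to 157), against 208 and 524 in EEP 2 and 3. EEP 1 also had the highest EEP sums of stroma markers, 21564, and of epithelium markers, 3472. Simple epithelium markers ranged widely within groups, from 422 to 3472 in EEP, and macrophage markers from 680 to 5362 in AS. The part of these cell types in the respiratory chain values was not tested.

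Transcripts of the mitochondrial genome were set beside the nuclear-encoded genes within each library. For each count of a member there were 22.8, 11.6 and 14.3 counts of the 13 mitochondrial protein-coding genes in normal 1, 2 and 3, and 39.4, 43 and 47.6 in AS. The CP libraries had 108, 46.4 and 65.1, the EEP libraries 5.4, 39.6 and 83.4. All AS and CP libraries lay above the normal ones, while EEP spanned both sides. This ratio mixes the nuclear genes with the total share of mitochondrial reads, which differed most between EEP libraries.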

How the data were processed

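QuantSeq 3′ libraries from 1000 ng of RNA were read in single-end mode at 75 bp, and Bowtie2, bedtools and edgeR were used by the authors, per the labels; versions are not given in the sources used here. The deposited table holds whole-number read counts for each gene; the authors' deposited log2 values (TMM-scaled CPM) and fold ratios of group averages were made by the authors, per the file headers, and not used. Its coordinates are on mRatBN7.2 per the file headers, while the submitters' processing notes name mm10. The authors' deposited q-values were below 0.05 for 0 members in each comparison.

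Counts of genes outside the mitochondrial genome were fitted here with edgeR 4.0.16 under R 4.3.3 (glmQLFit, glmQLFTest, 12 libraries, 4 groups), with the nuclear total as library size and no further factor. filterByExpr kept 13262 genes, p-values were adjusted by Benjamini-Hochberg over all of them, and the biological coefficient of variation was 57.9%. Alternatives were TMM and RLE factors, the whole table, DESeq2 1.42.0, other filters, 2 groups alone, an adjusted p under 0.1, the mitochondrial share as covariate, a replicate block and leaving out each library. Genes named per comparison were, by complex, the 2 with the smallest p and the one farthest from the median of its complex, plus isoform sets and complex II; others are named for their values. Members and lists were chosen with earlier results of these data known. Promoter windows matched 92 members.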

Additional observations from a re-analysis of the deposited data

How the results depend on the processing

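The median log2 fold change of the members stayed below 0 in CP and EEP against normal and against AS under every alternative run, from -0.96 to -0.36 over the processing settings and from -0.99 to -0.43 with single libraries left out. Summary values that moved were these, and single genes stand beside their results. DESeq2 called 1 member in CP against normal, 8 in EEP against AS and 6 in CP against AS; a fit of 2 groups alone called 8 in CP against normal; no low-count filter called 1 in EEP against AS and 2 in CP against AS. With the mitochondrial share as covariate the median in CP against normal was -0.36. Leaving out 1 library gave 0 to 3 calls and medians of -0.95 to -0.45 in EEP against normal. Members lying wholly lower numbered 2 in AS against normal with TMM, RLE or the whole table (7.91% to 8.42% of all genes), and 2 in EEP against CP with RLE or the whole table (3.19% and 3.13%). With 1 library left out they numbered 6 to 23 in AS against normal (15.1% to 20% of all genes), 33 to 68 in EEP against normal (10.5% to 21.6%), 31 to 67 in EEP against AS (5.58% to 12.4%) and 2 to 21 in EEP against CP (5.2% to 8.48%). Sdhc in AS against normal was -0.24 without AS 1 and at most 0.49 without any other library. The cause was not tested. Single genes were followed through the alternatives only for the 2 with the smallest p of each complex, in every comparison except EEP against CP. Of these values, 724 kept direction and side of the threshold, 22 newly passed it and 1 reversed. In EEP against CP the median was -0.27 with the mitochondrial share as covariate. The looser threshold moved no count of members called.

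Same-numbered libraries correlated at -0.105 to 0.384 over 18 pairs after removal of group means, and in 8 the own number was best, so the numbers were not taken as pairs. With a replicate block 0 members were called in each comparison. DESeq2 gave no adjusted p for 3 to 24 members.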
